A study of Oryza sativa with 2 samples.

Results

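The protein phosphatases 2C (PP2C) of rice (Oryza sativa) were followed in whole seedlings after exposure to accelerated carbon ions, which ionize densely along their track. Members were the probes of a single gene whose symbol or synonym begins with PP2C or OsPP2C and a number. This gave 51 probes for 45 genes, out of 17839 probes with 1 gene and 22574 probes measured on both arrays. The gene table names 60 PP2C genes in this way, and the other 15 are not analysed here. Seedlings were 7 days old, had been raised on MS medium in a growth chamber, and were irradiated for 2 h 35 min or left untreated as healthy controls. No genotype or cultivar is given in the labels. RNA of irradiated seedlings was hybridised against RNA of control seedlings on 2 two-colour oligonucleotide arrays. Irradiated RNA carried Cy5 on the first array and Cy3 on the swapped array. Both labels name the same replicate, so the pair was treated as 1 replicate per group, and no difference below has a replicate check or a test.

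Protein phosphatases 2C remove phosphate from serine and threonine residues, need magnesium or manganese ions, and form one of the largest phosphatase families of plants. The best known of them belong to clade A, the co-receptors of abscisic acid, the hormone of drought and seed dormancy. Without the hormone these enzymes keep SnRK2 kinases dephosphorylated and inactive. When abscisic acid binds a PYL/RCAR receptor, the receptor blocks the phosphatase and the kinases go on to phosphorylate transcription factors and ion channels. Members of other clades act on MAP kinases and immune receptor kinases and, in Arabidopsis, on the proton pump of the plasma membrane.

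Every value below is a log2 ratio of irradiated over control after an intensity trend (loess) was removed from each array, and the mean is that of both arrays. The array deviation is the distance of each array from that mean, and it holds dye effects and noise. Every direction is likely and not certain, because the files do not name the numerator of their ratios, which was taken to be Cy5. With both arrays turned to irradiated over control, they correlated at -0.25 over all probes and at 0.55 in the brightest 2 deciles of spot intensity. With each array centred on its median in place of loess, the correlation over all probes was -0.67. Probes were tied to genes through a numbering of the spots that was worked out from the values. Under that numbering 6 leaf marker probes of photosystem, light-harvesting and Rubisco activase genes had a median spot intensity of 17706, against 177.2 over all probes and 262 with the numbers as listed. These intensities come from the same values as the numbering, so they are not an independent check of it. The 61 probes for root-enriched transporters had a median intensity of 195.6. In whole seedlings a change in the share of a tissue and a change in RNA per cell cannot be told apart.

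The PP2C probes as a group lay slightly above the array. Their median was 0.19, against -0.01 over all probes. A mean above 0 was found for 32 of the 51, against 11151 of all 22574 probes. On the first array alone the PP2C median was 0.27, and on the swapped array it was 0.08. The middle of the family ran from -0.15 to 0.44 (quartiles), where all probes ran from -0.26 to 0.26. In the 5 dimmer deciles of spot intensity 22 PP2C probes had a median of 0.34, against -0.01 for all probes there. In the 5 brighter deciles 29 had a median of 0.10, against 0.00 for all probes. The shift was thus smaller in the 5 brighter deciles, but it did not fall steadily with brightness. The PP2C median was -0.41 in decile 7 (4 probes), 0.26 in decile 8 (9 probes) and 0.52 in decile 10, the brightest (3 probes).

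After loess the arrays pointed the same way for 32 of the 51 probes, and with median centring for 13. Of the 51 probes, 22 (43.1%) were higher on both arrays at any size, where 22.8% of all probes were, and 10 (19.6%) were lower on both, where 22.7% of all probes were. The other 19 probes (37.3%) pointed in opposite directions on the arrays, against 54.5% of all probes. With median centring 7 (13.7%) were higher on both arrays and 6 (11.8%) lower, against 8.97% of all probes in each direction. The surplus of higher probes was thus smaller than after loess, and lower probes were then also above their share. Among the 9 PP2C probes of the brightest 2 deciles, 5 were higher on both arrays, against 27.4% of all probes there, and 2 were lower on both, against 28.3%. With median centring OsPP2C27 alone of these 9 was higher on both, against 6.02% of all probes there, and 0 were lower, against 1.68%. No test stands behind these counts. The plot of every probe by array shows that the arrays lay close together for some members and far apart for others.

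**Figure D1:**
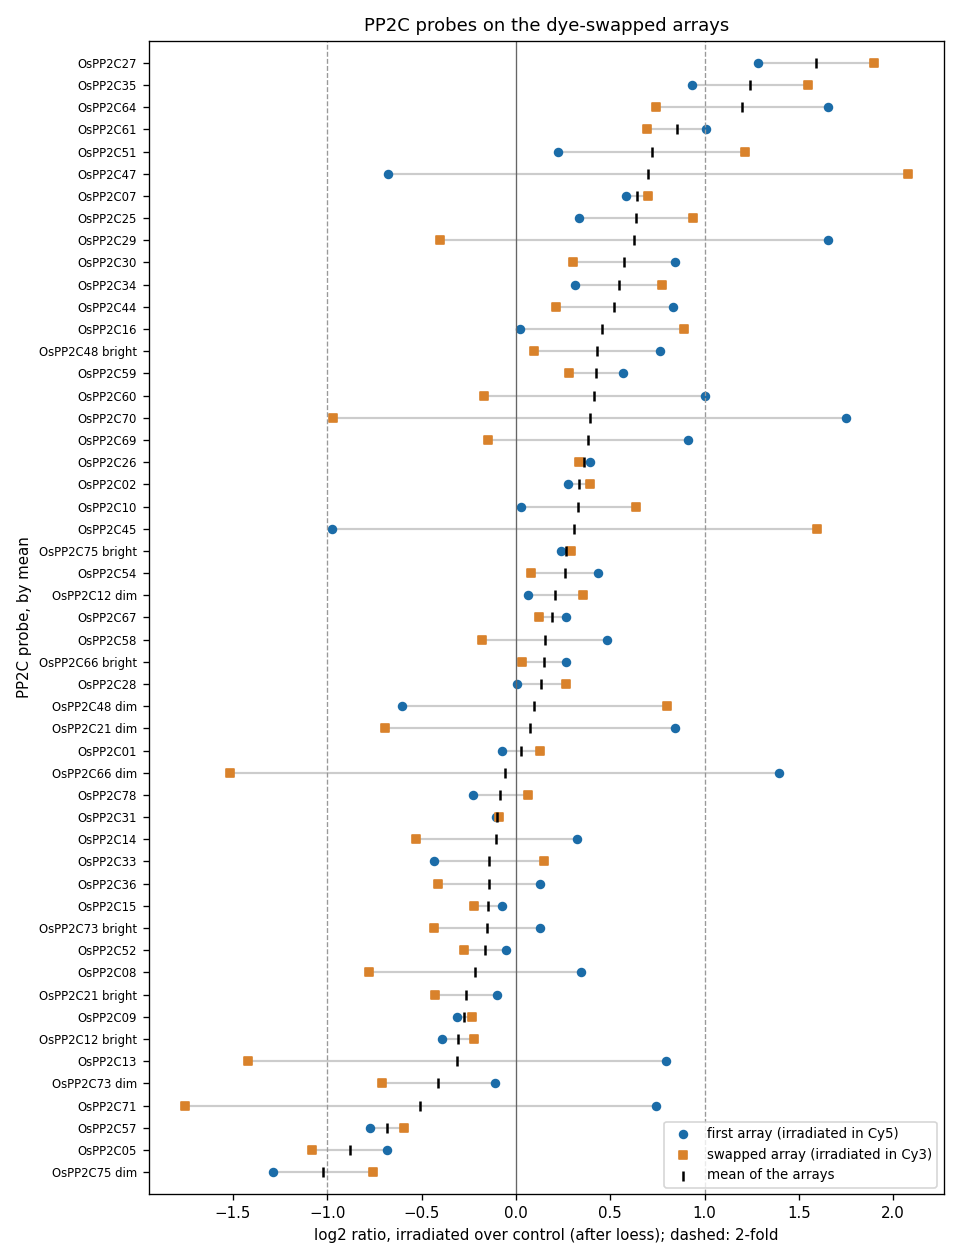
Each row is a PP2C probe, ordered by its mean, with the log2 ratio of irradiated over control on the first array (circle), on the swapped array (square) and their mean (bar). Dashed lines mark 2-fold, and where a gene has 2 probes the brighter and dimmer are named. OsPP2C27 is the only row with both points past a dashed line on the same side.

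Large differences were rare. At 2-fold on both arrays 1 PP2C probe (1.96%) was higher, where 1.88% of all probes were, and 0 were lower, where 0.315% of all probes were. The share past 2-fold was thus at the level of the whole array. At 1.5-fold on both arrays 5 PP2C probes (9.80%) were higher, against 4.05% of all probes, and 3 (5.88%) were lower, against 2.12%. For 35 of the 51 probes the mean was smaller than 0.5 in either direction, and the share of all probes in that range is not given here.

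OsPP2C27 (LOC4331028) was the highest member. In rice this phosphatase is known to act on a MAP kinase and a bHLH transcription factor of the chilling response and to limit cold tolerance. Its ratio was 1.28 on the first array, or 2.43-fold, and 1.90 on the swapped one, or 3.73-fold. The mean was 1.59, or 3.01-fold, with an array deviation of 0.31. Its spots were among the brighter ones, with an intensity of 774, and its mean ranked number 276 from the top of all 22574 probes. With each array centred on its median instead of its intensity trend, the arrays stood at 2.18 and 0.89. The mean was then 1.53, but the swapped array no longer reached 2-fold.

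OsPP2C35 (LOC4334600), also named XB15, was second. In rice it binds XA21, the receptor kinase of resistance to bacterial blight, dephosphorylates it and dampens its immune signalling. It stood at 0.93 and 1.55 on the arrays, a mean of 1.24 or 2.36-fold. The first array fell just short of 2-fold, and the spots were of middling brightness, at 161. With median centring the arrays stood at 0.81 and 2.05, so the direction held on both.

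OsPP2C64 (LOC4343629) followed with 1.66 and then 0.74 on the arrays, a mean of 1.20. Here the first array carried the larger value, the opposite order to OsPP2C27 and OsPP2C35. The spots were as dim as those of OsPP2C35, at 160. With median centring its values were 0.93 and 0.60, and its mean of 0.76 was clearly smaller.

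The remaining members past 1.5-fold were smaller in size. OsPP2C61 (LOC4342246) stood at 1.01 and 0.70, a mean of 0.85 at an intensity of 284. Its swapped-array value depended on the intensity given to the spot and was -0.29 when common factors were not restored, with a mean of 0.37. OsPP2C07 (LOC9269413) stood at 0.59 and 0.70, a mean of 0.64 with an array deviation of 0.06. It was among the brightest members, at an intensity of 1170. Its agreement rests on loess, since with median centring the arrays stood at 1.62 and -0.42.

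**Figure D2:**
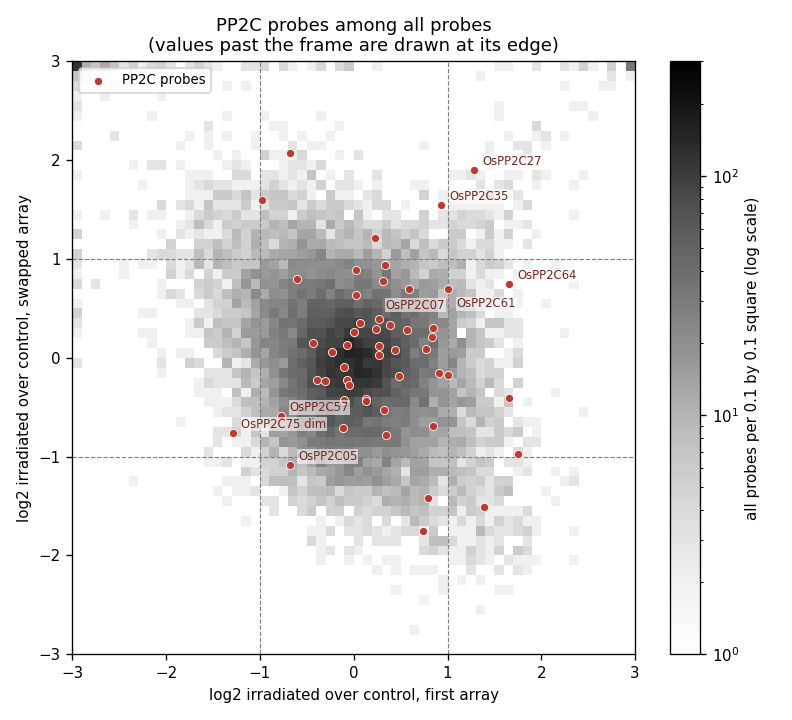
Log2 ratio of irradiated over control on the first array (x axis) and on the swapped array (y axis), with all probes as grey squares shaded on a log scale and PP2C probes as red points. Dashed lines mark 2-fold and the members past 1.5-fold on both arrays are named. OsPP2C27, at 1.28 and 1.90, is the only PP2C point past 2-fold on both arrays, among 425 of all probes there, while the grey cloud leans from upper left to lower right.

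Of the 3 members that were lower past 1.5-fold, none reached 2-fold on both arrays. The dimmer probe of OsPP2C75 (LOC9268201) stood at -1.29 and -0.76, a mean of -1.02, at an intensity of 92.0. OsPP2C05 (LOC4325851) stood at -0.68 and -1.08, a mean of -0.88, at an intensity of 252. OsPP2C57 (LOC4341433) stood at -0.77 and -0.59, a mean of -0.68, at an intensity of 264. All 3 kept a mean below 0 with median centring, at -0.88, -0.57 and -0.41, but none was then past 1.5-fold on both arrays. For the OsPP2C75 probe the swapped array turned to 0.33.

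Which members stayed past 1.5-fold depended on the normalization. With median centring at 1.5-fold, 4 PP2C probes (7.84%) were higher on both arrays, against 2.11% of all probes, and these were 4 of the same 5, OsPP2C07 being the one lost. In the lower direction 0 of the 3 passed, against 0.558% of all probes. Over 5 ways to normalize (loess, loess with a wider span, loess without restored factors, and median centring with and without scaling) OsPP2C27 and OsPP2C35 passed 1.5-fold higher on both arrays each time. OsPP2C64 and OsPP2C61 passed in 4 of the 5, and OsPP2C07 in 2. The first-array value of OsPP2C07 lay at the cutoff itself. It was 0.5858 after loess, which passed, and 0.5849 without restored factors, which did not. Each of the 3 lower members passed in 3 of the 5, which were the loess settings. Without restored factors 4 probes were higher, OsPP2C10 in place of OsPP2C61 and OsPP2C07, and these 3 lower. The mean was above 0 in all 5 for 26 probes, below 0 in all 5 for 12, and changed sign among them for 13.

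**Figure D3:**
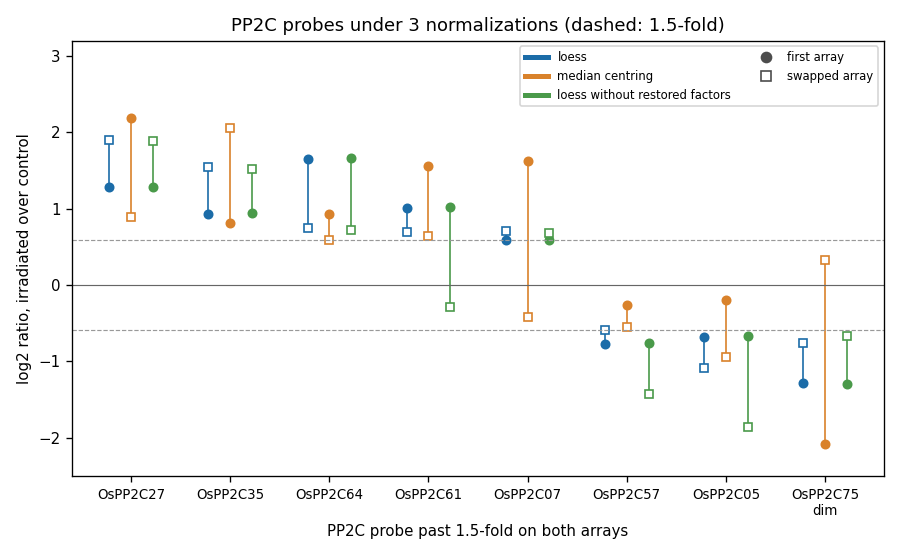
Log2 ratio of irradiated over control for the 8 PP2C probes past 1.5-fold on both arrays, after loess (blue), after median centring (orange) and after loess without restored common factors (green). Filled circles are the first array, open squares the swapped array, and dashed lines mark 1.5-fold. OsPP2C27, OsPP2C35 and OsPP2C64 stay above the upper dashed line in all columns, OsPP2C64 only just, at 0.60 on the swapped array with median centring. OsPP2C07 and the dimmer OsPP2C75 probe cross 0 with median centring.

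The abscisic acid co-receptors of clade A were few on the array. Of 9 clade A genes named from general knowledge of the rice family, 4 had a probe. Their median was 0.18, against 0.19 for the other 47 PP2C probes. OsPP2C51 (LOC4339671), which promotes germination in rice by acting on a bZIP factor, stood at 0.22 and 1.22, a mean of 0.72. OsPP2C30 (LOC4332374), which in rice pairs with the receptor RCAR5 and the kinase SAPK2, stood at 0.85 and 0.30, a mean of 0.57. Both were higher on both arrays, but by less than 1.5-fold on one of them, and both are dim, at intensities of 114 and 122. With median centring they stood at -0.74 and 1.32 and at -0.04 and 0.52, so neither was then higher on both arrays. OsPP2C09 (LOC4327465) was lower on both arrays, at -0.31 and -0.23. OsPP2C08 (LOC4324182) stood at 0.34 and -0.78, so the arrays opposed each other. The clade as measured here thus ran from -0.27 to 0.72 and did not move one way.

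The partners of these phosphatases were read from lists of gene symbols. The only PYL/RCAR receptor with a probe was RCAR5, listed also as PYL5, at -0.50 and -0.67, a mean of -0.58. The SnRK2 kinases, the substrates of clade A phosphatases, had a median of -0.11 over 12 probes for 10 genes. Of these probes 0 were past 2-fold in either direction, where 1.88% of all probes were higher and 0.315% lower. Past 1.5-fold 2 were higher and 0 lower, against 4.05% and 2.12% of all probes. SAPK6 stood at 0.81 and 1.06, a mean of 0.93, and SAPK2 at 0.83 and 0.65, a mean of 0.74. Both are bright, at intensities of 1397 and 546. With median centring the swapped array turned to -0.16 for SAPK6 and to -0.33 for SAPK2. For RCAR5 the first array turned to 0.12. The lowest SnRK2 probe was that of SAPK10 at -0.33 and -0.76. For OsPP2C30 and its known partners the means were thus 0.57 for the phosphatase, 0.74 for SAPK2 and -0.58 for RCAR5.

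Among abscisic acid transcription factors the 3 probes had a median of 0.24. Past 1.5-fold 0 were higher and 0 lower, against 4.05% and 2.12% of all probes. TRAB1, a bZIP factor named for abscisic acid responses, stood at 0.19 and 0.29. ABF2, also known as bZIP23, stood at 0.69 and -0.03, and the B3 factor VP1 of seed maturation at -0.59 and -0.34. The single probe for abscisic acid breakdown, ABA8OX1 or CYP707A5, was past 2-fold at 1.88 and 1.17, a mean of 1.53. It encodes an 8'-hydroxylase that inactivates the hormone, and its mean was close to that of OsPP2C27. With median centring it stood at 1.98 and 0.50. No synthesis gene matched the list. The 15 probes for 14 dehydration and cold markers had a median of 0.15, from salT at -0.43 to DREB2A at 0.65. Of the 15, 0 were past 1.5-fold in either direction, where 4.05% of all probes were higher and 2.12% lower. Of them 7 were higher on both arrays and 1, DREB1B, was lower, against 22.8% and 22.7% of all probes. With median centring only DREB2A and the dimmer SNAC2 probe of these stayed higher on both arrays. The arrays then opposed each other for RAB16C, RAB16D, DREB1A, EM, the brighter SNAC2 probe and DREB1B.

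**Figure D4:**
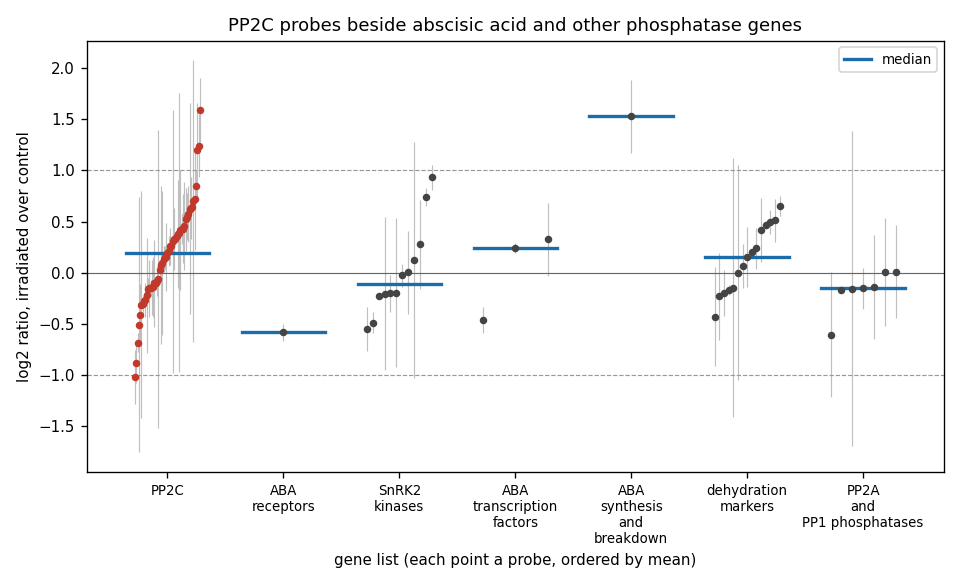
Mean log2 ratio of irradiated over control for each probe (point), with a bar to each array, for PP2C genes (red) and for lists of abscisic acid genes and other phosphatases (dark grey). Blue lines are list medians and dashed lines mark 2-fold. PP2C probes spread from -1.02 to 1.59 around a median of 0.19, and the PP2A and PP1 list around -0.15.

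Other serine and threonine phosphatases had a median slightly below that of the array, but the arrays opposed each other for most of their probes. The 7 probes for 5 genes of PP2A catalytic subunits and of the BSL type, a PP1-related phosphatase of brassinosteroid signalling, had a median of -0.15. None was past 1.5-fold in either direction (0 higher and 0 lower, against 4.05% and 2.12% of all probes). At any size 0 were higher on both arrays and 1, PP2A3, was lower on both, against 22.8% and 22.7% of all probes. With median centring PP2A3 stood at 0.75 and -1.07. Their means ran from -0.61 for PP2A2 to 0.01 for a probe of BSL2. No probe matched the lists for MAP kinase or tyrosine phosphatases or for anion channels. The difference between PP2C and these probes was not tested.

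Of the 45 genes, 6 had 2 probes, and these show how far a single probe can be read. After loess the probes of a gene had means of the same sign for OsPP2C48 and OsPP2C73 and of opposite sign for the other 4. The median distance between them was 0.34. This split depended on the normalization. With median centring the means had the same sign for OsPP2C12, OsPP2C21, OsPP2C66 and OsPP2C73. They were then opposite for OsPP2C48, at 0.15 and -0.14, and for OsPP2C75, at 0.11 and -0.88, the brighter probe first. After loess the widest gap was at OsPP2C75, where the brighter probe stood at 0.24 and 0.29, a mean of 0.27, against -1.02 for the dimmer one. The lowest value of the family thus came from a gene whose other probe was slightly above 0. OsPP2C12 (LOC4328768) had 2 bright probes at means of -0.31 and 0.21, and on each probe both arrays had the same sign after loess but not with median centring. For OsPP2C66 (LOC4345947) the brighter probe stood at 0.27 and 0.03, while the arrays opposed each other on the dimmer one, at 1.39 and -1.51. The OsPP2C48 (LOC4338531) means were 0.43 and 0.10, those of OsPP2C73 (LOC4349568) -0.15 and -0.41, and those of OsPP2C21 (LOC4329930) -0.26 and 0.07, the brighter probe first. None of the 6 genes passed 1.5-fold with both its probes.

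After loess the arrays agreed more closely for bright spots. PP2C probes had a median array deviation of 0.37 in the 5 dimmer deciles and 0.18 in the 5 brighter ones, where all probes had 0.47 and 0.19. Array deviations above 1 occurred for 7 PP2C probes, and the share of all probes above 1 is not given here. Among the 7 were OsPP2C47 at -0.68 and 2.08, OsPP2C70 at 1.75 and -0.97, and OsPP2C29 at 1.66 and -0.41. Another was DCW11, listed as OsPP2C13, a phosphatase linked in rice to cytoplasmic male sterility and pollen, at 0.80 and -1.42. On one array alone these members would pass 2-fold, and on the other they pointed the opposite way. In all, 8 PP2C probes stood past 2-fold on an array while the other array had the opposite sign. This was 15.7% of them, against 17.3% of all probes, and thus near the level of the whole array. With median centring the arrays did not agree better for bright spots. In the brightest 2 deciles 6.02% of all probes there were then higher on both arrays and 1.68% lower. Over the whole array these shares were 8.97% each.

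Only 3 members lay in the brightest decile, where the arrays differ least after loess. They were OsPP2C44 (LOC4336940) at 0.83 and 0.21 with an intensity of 1448, OsPP2C07 as above, and OsPP2C52 (LOC4339763) at -0.05 and -0.27 with an intensity of 949. The robust SD of the mean over all probes of that decile was 0.23, so the means of 0.52 for OsPP2C44 and 0.64 for OsPP2C07 lay beyond it and that of -0.16 for OsPP2C52 within it. Many other probes lay as far out, since OsPP2C44 ranked number 212 and OsPP2C07 number 179 from the top of the 2258 probes there. For OsPP2C44 the swapped array was at -0.35 without restored factors and at -0.93 with median centring, so its agreement rests on the normalization. In the next decile OsPP2C27 stood apart from OsPP2C01 at -0.07 and 0.13, and from both probes of OsPP2C12 and the brighter probes of OsPP2C66 and OsPP2C73, whose means lay between -0.31 and 0.21.

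**Figure D5:**
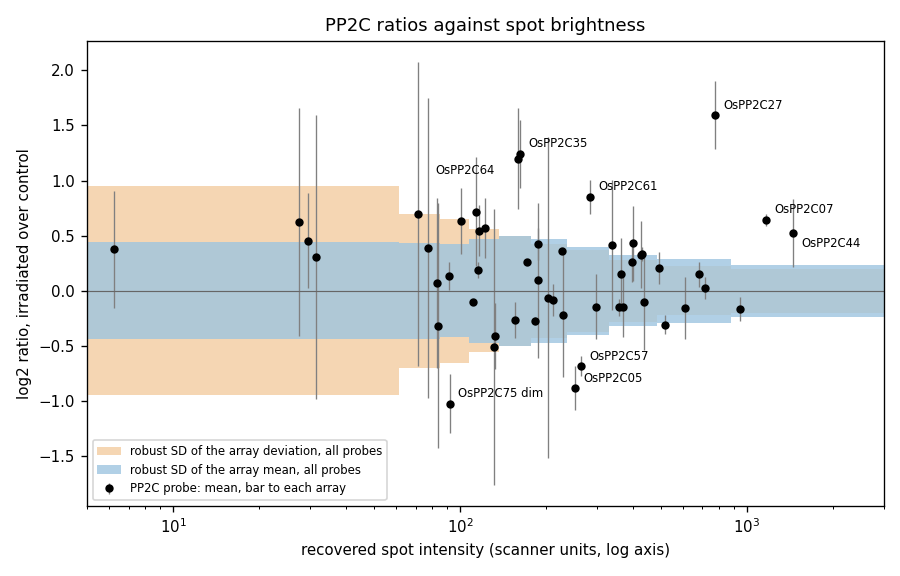
Mean log2 ratio of irradiated over control (y axis) against recovered spot intensity (x axis, log scale) for PP2C probes, with bars to each array. Bands show, for all probes in each intensity decile, the robust SD of the array mean (blue) and of the array deviation (orange). OsPP2C27, at 1.59 and an intensity of 774, lies far outside both bands, and bars shorten towards bright spots.

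Several members were higher on both arrays at small sizes after loess. OsPP2C26 (LOC4330377) stood at 0.39 and 0.34, and OsPP2C02 (LOC4326717) at 0.27 and 0.39. OsPP2C59 stood at 0.57 and 0.28, but its mean of 0.43 became -0.08 with median centring. All 3 were below 1.5-fold on both arrays. OsPP2C34 (LOC4334191), listed as BIPP2C2 and named for its induction by benzothiadiazole, a chemical that triggers defence, stood at 0.32 and 0.78. OsPP2C25 (LOC4330350) stood at 0.33 and 0.94. Both are dim, at intensities of 116 and 101. With median centring OsPP2C26 stayed higher on both arrays, at 0.54 and 0.23. The arrays then opposed each other for OsPP2C02 at 0.87 and -0.35, for OsPP2C34 at -0.44 and 1.45, and for OsPP2C25 at -0.62 and 1.43.

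Members near 0, and several whose arrays differed widely, completed the family. OsPP2C31 stood at -0.11 and -0.09, OsPP2C15 at -0.07 and -0.22, and OsPP2C78 at -0.23 and 0.06. OsPP2C54, OsPP2C67, OsPP2C58 and OsPP2C28 had means between 0.14 and 0.26, and OsPP2C14, OsPP2C33 and OsPP2C36 between -0.14 and -0.10. Without restored factors OsPP2C36 moved to a mean of -0.75, OsPP2C58 to -0.30, OsPP2C14 to 0.24, and OsPP2C10 from 0.33 to 0.89. Their sizes thus depend on the spot intensity assumed. OsPP2C16, OsPP2C45 and OsPP2C69 lay in the dimmest decile together with OsPP2C29, with means between 0.31 and 0.63 and array deviations between 0.43 and 1.29. OsPP2C60 stood at 1.004 and -0.17, and OsPP2C71 at 0.74 and -1.76.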

How the data were processed

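Each deposited column holds log10 ratios between the channels of an array, 22575 in all with 1 missing. Per the series' design text, arrays were read on a GenePix scanner and normalized in GeneSpring, but the column medians were 0.051 and 0.20, so the authors' log10 values were treated as not normalized. The numerator and the background handling are not stated there. For each spot the simplest fraction within 9 decimals was found, common factors up to 59 were restored with the help of the other array, and the geometric mean of its terms served as a coarse intensity. Loess (statsmodels 0.14.6, span 0.3, 3 robustness iterations) was subtracted, residuals were taken to log2, and the array with irradiated RNA in Cy3 was turned. The steps were run on simulated data with a linear intensity trend, random noise and no dye effect of single probes. That setting is simpler than these arrays, so it does not show how the steps handle the disagreement between them. The deposited columns correlated at 0.67 over all probes. After loess and turning they correlated at -0.25, and at 0.55 in the brightest 2 deciles.

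Genes were matched through a column-wise numbering of the spot grid, the platform annotation and the RefSeq table of assembly ASM3414082v1, which held all 17839 probes with 1 gene, while 21 had several. Probes past a fold on both arrays were counted, with no test. Clade A members and lists came from general knowledge, and members and lists were chosen with earlier results of these data known. Values on both arrays are given for members past 1.5-fold, the highest, lowest and brightest, clade A and genes with several probes. Alternatives were other centring, unrestored factors, a wider span, single arrays, the opposite numerator, no turning, listed numbers, brighter probes, gene means and other folds.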

Additional observations from a re-analysis of the deposited data

How the results depend on the processing

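No paired analysis was possible because each group has 1 replicate. The count of PP2C probes past 2-fold on both arrays, 1 higher and 0 lower, became 0 higher with median centring, with or without scaling, and at 3-fold. It was 5 and 3 at 1.5-fold, 3 and 1 by the array mean, 7 and 1 using only the first array, and 5 and 4 using only the swapped one. With Cy3 over Cy5 it was 0 higher and 1 lower, and at 1.5-fold with median centring, chosen after seeing the data, 4 higher. It stayed at 1 and 0 with unrestored factors, a wider span, gene means and the 5 brighter deciles, and also with the swapped array not turned or numbers as listed, but there for another probe. Over all probes the counts of 425 higher and 71 lower became 257 and 27 with median centring, 251 and 28 with scaling, 914 and 478 at 1.5-fold, 476 and 126 with both changes, 187 and 6 at 3-fold, and 708 and 283 by the array mean. Single arrays gave 1884 and 1736 (first) or 2267 and 1807 (swapped). The counts were 71 and 425 with Cy3 over Cy5, and 451 and 738 without turning. In the 5 brighter deciles the counts were 374 and 47. At any size, 22 PP2C probes higher and 10 lower on both arrays became 7 and 6 with median centring, with or without scaling, and 20 and 9 with unrestored factors or a wider span, settings chosen after seeing the data. The PP2C median of 0.19 was 0.0804 using only the swapped array, 0.0963 in the 5 brighter deciles, 0.0742 without turning, 0.0683 with listed numbers and -0.193 with Cy3 over Cy5. OsPP2C27 turned to -1.59 with Cy3 over Cy5 and to -0.31 without turning, by construction of those readings. The cause of the other changes was not tested. The number of arrays limits the precision, and after loess the arrays differed more for dim spots, 22 of the 51.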
